A study of Mus musculus with 3 samples.

Results

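The cell cycle genes are 40 genes whose transcripts accumulate while a cell copies its DNA or divides, of 31253 genes listed in the skin count matrices. They were taken by symbol, and all 40 were found. The 40 were split into 14 genes of S phase, 24 genes of mitosis (and the G2 phase before it), and 2 genes, Hmgb2 and Stmn1, that are high in both. A cell was counted as positive when it had a UMI (a unique molecular identifier, which marks 1 captured RNA molecule) of at least 3 of these genes. The study asked how psychological stress, through sympathetic nerves and eosinophils, bears on skin inflammation in mice.

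The RHS library held skin cells from mice treated with RHS and MC903, and the control library held skin cells from mice treated with MC903 alone. MC903 is calcipotriol, a vitamin D analogue that inflames mouse skin when applied to it, so both groups had inflamed skin. The labels do not expand RHS, and the strain, the age and how many mice were pooled are not given in them for the skin. Cells were enriched with magnetic beads against CD45, the pan-leukocyte surface protein, and captured in microwells on the BD Rhapsody system.

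Each skin group was 1 library, so no difference between RHS and control has a replicate check, and no test was made. The intervals below are 95% intervals that cover counting error only. They are exact for shares, levels and ratios of levels. Those of ratios of shares take positive cells as counts with no upper limit, so they are too wide where a share is large. The RHS library held 13339 cell barcodes and 52762576 UMIs, and the control library held 12979 barcodes and 55200784 UMIs. After filtering, 12953 RHS cells with a median of 3101 UMIs and 12577 control cells with a median of 3233 UMIs remained, and 5 of the deposited barcodes occurred in both libraries. Clustering, from which the 40 genes and 2 longer cell cycle lists were left out, gave 25 clusters, each taken as a class of cells. A class was named "X-like" from marker genes where the markers allowed, and was otherwise called by its number. Against the CD45 selection, 8 classes had less than 100 UMIs of Ptprc, the gene for CD45, per 1000000 UMIs. Those classes were keratinocyte, sebocyte, endothelial, fibroblast, mural and melanocyte-like cells and the unnamed clusters 1 and 17.

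A dividing cell first makes nucleotides and loads the MCM helicase on its DNA, then copies the DNA behind the sliding clamp PCNA, and later builds a spindle that separates the chromosomes. The S-phase genes are switched on by E2F transcription factors, and the mitotic genes are held off by the DREAM complex and switched on by MuvB with B-MYB and FOXM1, through CHR and CCAAT elements in their promoters. In skin, basal keratinocytes, hair follicle cells, Langerhans cells and resident T cells are known to divide in place, whereas neutrophils arrive as non-dividing cells.

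Shown are the promoters of the 3 S-phase and the 3 mitotic members with the most UMIs among those with a promoter in the reference table, because the elements through which both groups are known to be controlled lie there. Mcm4 had no promoter in the table. Promoters are from RefSeq on mouse build GRCm38.p6, from 250 bases before to 50 bases after the gene start, each printed in the gene's own direction. The deposited counts were made on GRCm39, and no coordinate was carried between the builds. Pcna is at chr2:132253131-132253430 on the minus strand, Mcm6 at chr1:128359656-128359955 on the minus strand, and Rrm1 at chr7:102441445-102441744 on the plus strand. Cenpa is at chr5:30666636-30666935 on the plus strand, Top2a at chr11:99024140-99024439 on the minus strand, and Ube2c at chr2:164769679-164769978 on the plus strand. Capitals mark matches on either strand to 3 motifs. The CHR element was searched as TTTGAA and in a second form as TTCGAA. The CCAAT element was searched by its name's own letters. The E2F site was searched as TTTCCCGC, TTTGGCGC, TTTCGCGC and TTTGCCGC. Matches that overlap, as the E2F ones in Mcm6 and the CCAAT ones in Ube2c do in places, form 1 run of capitals, and the second CHR form reads the same on both strands.
Pcna: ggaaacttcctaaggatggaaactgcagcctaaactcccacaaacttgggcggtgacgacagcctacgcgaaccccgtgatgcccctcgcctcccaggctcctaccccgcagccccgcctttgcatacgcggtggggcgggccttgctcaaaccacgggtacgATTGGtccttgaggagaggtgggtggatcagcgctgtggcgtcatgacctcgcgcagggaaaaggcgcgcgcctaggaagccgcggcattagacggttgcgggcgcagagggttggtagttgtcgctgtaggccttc
Mcm6: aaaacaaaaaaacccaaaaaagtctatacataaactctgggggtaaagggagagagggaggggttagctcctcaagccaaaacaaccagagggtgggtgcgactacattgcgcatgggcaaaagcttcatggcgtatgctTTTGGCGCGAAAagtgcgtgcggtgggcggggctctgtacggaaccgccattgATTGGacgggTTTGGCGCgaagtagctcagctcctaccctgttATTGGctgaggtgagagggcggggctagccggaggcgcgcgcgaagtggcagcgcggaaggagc
Rrm1: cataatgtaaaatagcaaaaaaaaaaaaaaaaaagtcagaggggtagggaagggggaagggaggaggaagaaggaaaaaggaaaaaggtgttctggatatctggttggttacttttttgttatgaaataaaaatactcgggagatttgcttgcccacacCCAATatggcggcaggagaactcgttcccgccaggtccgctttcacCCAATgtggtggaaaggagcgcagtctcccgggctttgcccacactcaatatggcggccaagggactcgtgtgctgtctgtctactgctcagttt
Cenpa: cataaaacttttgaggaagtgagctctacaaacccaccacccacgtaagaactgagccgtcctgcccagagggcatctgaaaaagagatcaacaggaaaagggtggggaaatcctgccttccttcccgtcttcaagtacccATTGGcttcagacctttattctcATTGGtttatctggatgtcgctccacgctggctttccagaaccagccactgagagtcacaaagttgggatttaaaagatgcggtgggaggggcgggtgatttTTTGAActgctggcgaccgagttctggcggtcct
Top2a: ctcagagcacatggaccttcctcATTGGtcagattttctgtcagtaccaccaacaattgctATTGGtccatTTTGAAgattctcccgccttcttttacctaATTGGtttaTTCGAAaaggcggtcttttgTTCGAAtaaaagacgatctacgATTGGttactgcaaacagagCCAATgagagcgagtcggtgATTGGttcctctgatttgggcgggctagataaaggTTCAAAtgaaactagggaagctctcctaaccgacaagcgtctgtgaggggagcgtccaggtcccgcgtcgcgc
Ube2c: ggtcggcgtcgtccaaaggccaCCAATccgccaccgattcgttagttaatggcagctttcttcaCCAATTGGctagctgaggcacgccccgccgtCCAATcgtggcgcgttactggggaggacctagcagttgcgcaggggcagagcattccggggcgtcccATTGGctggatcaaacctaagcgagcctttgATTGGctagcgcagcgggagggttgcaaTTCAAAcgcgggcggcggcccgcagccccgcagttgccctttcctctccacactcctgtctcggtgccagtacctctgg
Of the 40 members, 32 had a promoter in the table. A CHR match was present in 16 of 20 mitotic promoters and in 2 of 11 S-phase promoters (Mcm2 and Mcm7), against 19.4% of 27025 promoters of the same length. The CCAAT match was present in 18 of 20 mitotic promoters and in 9 of 11 S-phase promoters, against 37.9% of all promoters. The E2F match was present in 1 of 20 mitotic promoters (Cdk1) and in 4 of 11 S-phase promoters (Mcm3, Mcm5, Mcm6 and Mcm7), against 2.32% of all promoters. In the promoters shown, Top2a held 4 CHR and 6 CCAAT matches, Ube2c held 1 CHR and 6 CCAAT matches, and Cenpa held 1 CHR and 2 CCAAT matches. Mcm6 held 3 E2F matches, and Pcna and Rrm1 held CCAAT matches and no CHR or E2F match. A match describes the letters and is not evidence of a bound site.

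The 40 genes ranged from ones seen in most cells to ones nearly limited to dividing cells. Pcna, the clamp that holds DNA polymerase on its template, had a UMI in 57.6% of RHS cells and 55.3% of control cells. Hmgb2, a chromatin protein, had a UMI in 49.0% of RHS cells and 50.2% of control cells. Cenpa, the histone that marks centromeres, had a UMI in 27.8% of RHS cells and 29.8% of control cells. Plk1, a mitotic kinase, was the gene seen in the fewest cells, with 0.162% of RHS cells and 0.342% of control cells. These breadths bear on any count of positive cells, because a cell with Pcna, Hmgb2 and Cenpa reaches 3 members without any gene that is limited to division.

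How far each gene was limited to dividing cells was described by the percent of its UMIs that lay in cells with at least 3 mitotic genes other than itself. For the 24 mitotic genes the median was 78.0% in RHS and 86.7% in control. Ccna2, the cyclin of late S phase and G2, was highest among them, with 95.5% in RHS and 96.5% in control. Bub1, a spindle checkpoint kinase, had 95.1% in RHS and 94.6% in control. Cenpa was lowest, with 19.4% in RHS and 21.5% in control, so most of its UMIs lay outside such cells in both libraries. Bub1b, the checkpoint partner of Bub1, had 51.9% in RHS and 50.7% in control, and Kif23, a kinesin of cell separation, had 46.6% in RHS and 56.3% in control. For the 14 S-phase genes the median was 58.9% in RHS and 66.1% in control. Esco2, which acetylates cohesin during replication, was highest among them, with 96.5% in RHS and 94.9% in control. Pcna was lowest, with 25.1% in RHS and 33.9% in control. Of the members high in both phases, Hmgb2 had 46.5% in RHS and 59.1% in control, and Stmn1, a regulator of microtubules, had 68.3% in RHS and 74.5% in control.

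**Figure D1:**
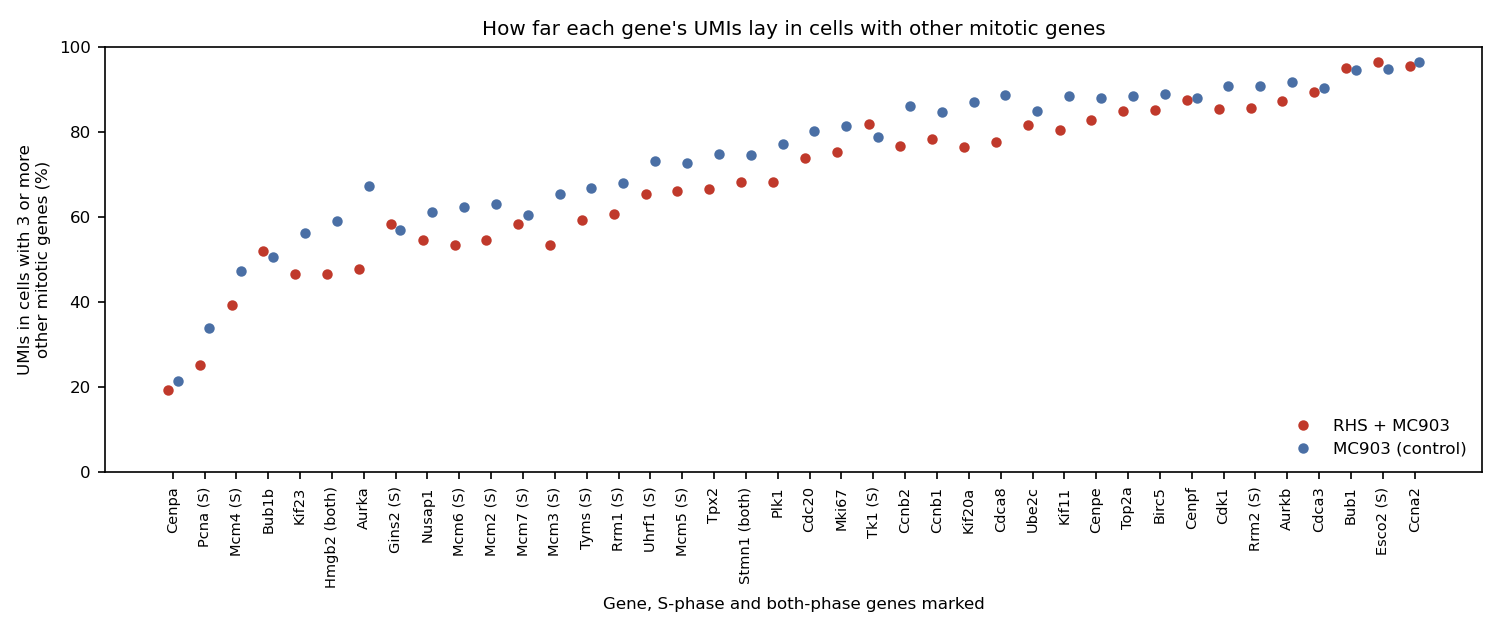
Percent of each member's UMIs (y axis) that lay in cells with at least 3 mitotic members other than itself, for each member (x axis), in the RHS library (red) and the control library (blue); (S) and (both) mark S-phase genes and genes high in both phases. Most mitotic genes lie near their median of 78.0% in RHS and 86.7% in control, while Cenpa lies at 19.4% in RHS and 21.5% in control.

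Across classes, regulatory T cell-like cells and the keratinocyte-like cells of cluster 14 had the highest levels of most members. Levels are given as CPM, the UMIs of a gene per 1000000 UMIs of the class. Regulatory T cells restrain immune responses and were recognised by Foxp3 and Ctla4. Cluster 14 was led by Krt16, Krt25, Krt17 and Krt28 and held all 8 markers of basal or follicular keratinocytes. In 31 of the 40 members the class with the highest mean level was regulatory T cell-like, in 8 it was cluster 14, and in 1, Cenpa, it was NK cell-like. The 8 were Uhrf1, Esco2, Ccnb1, Cdc20, Cdca8, Tpx2, Ube2c and Stmn1. Ccna2 was itself among the 10 leading genes of the regulatory T cell-like class, although it took no part in the clustering. Pclaf, Tuba1b and Tubb5, which were higher in cells with mitotic genes, did take part in it. Whether dividing cells of other kinds were drawn into this class was not tested.

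Mki67, the gene for the proliferation marker Ki-67, had 222 CPM in RHS and 223 CPM in control in regulatory T cell-like cells, apart from every other class in both libraries. The next 5 classes in order of the mean level each overlapped their neighbour over the libraries and cannot be ranked. Cluster 14 had 132 CPM in RHS and 69.8 CPM in control, and the alpha-beta T cell-like cells of cluster 7, led by Cd8a and Gzma, had 79.9 CPM in RHS and 79.5 CPM in control. NK cell-like cells had 88.7 CPM in RHS and 42.9 CPM in control, and cluster 6, led by Tnfsf8, Cd4, Calca and Gata3, had 51.0 CPM in RHS and 79.8 CPM in control. Cluster 6 was called alpha-beta T cell-like from all 10 markers of that type, but it also held 5 of 9 markers of type 2 innate lymphoid cells. At a finer resolution of 2.0, a cluster of 720 RHS and 748 control cells with many of the same leading genes and Il5 was named type 2 innate lymphoid cell-like, and with doublets kept so was one of 637 RHS and 715 control cells. Cluster 6 is therefore called by its number, and which of these cell types its values come from was not tested. Mast cell-like cells had 58.9 CPM in RHS and 70.3 CPM in control. At the other end, the unnamed cluster 17, led by Pappa2 and Slc26a7, had 1.30 CPM in RHS and no UMI in control.

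Top2a, the topoisomerase that untangles chromosomes, followed nearly the same order. It had 311 CPM in RHS and 304 CPM in control in regulatory T cell-like cells, and 194 CPM in RHS and 136 CPM in control in cluster 14. Pcna was spread more evenly: regulatory T cell-like cells had 862 CPM in RHS and 753 CPM in control, and endothelial-like cells had 671 CPM in RHS and 710 CPM in control. Sebocyte-like cells had 123 CPM of Pcna in RHS and 99.4 CPM in control. Hmgb2 was high in lymphoid classes and was also present in granulocytes. Regulatory T cell-like cells had 2071 CPM of Hmgb2 in RHS and 2216 CPM in control, and neutrophil-like cells had 514 CPM in RHS and 486 CPM in control. Stmn1 was highest in cluster 14, with 1353 CPM in RHS and 1067 CPM in control, against 9.52 CPM in RHS and 24.3 CPM in control in neutrophil-like cells.

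**Figure D2:**
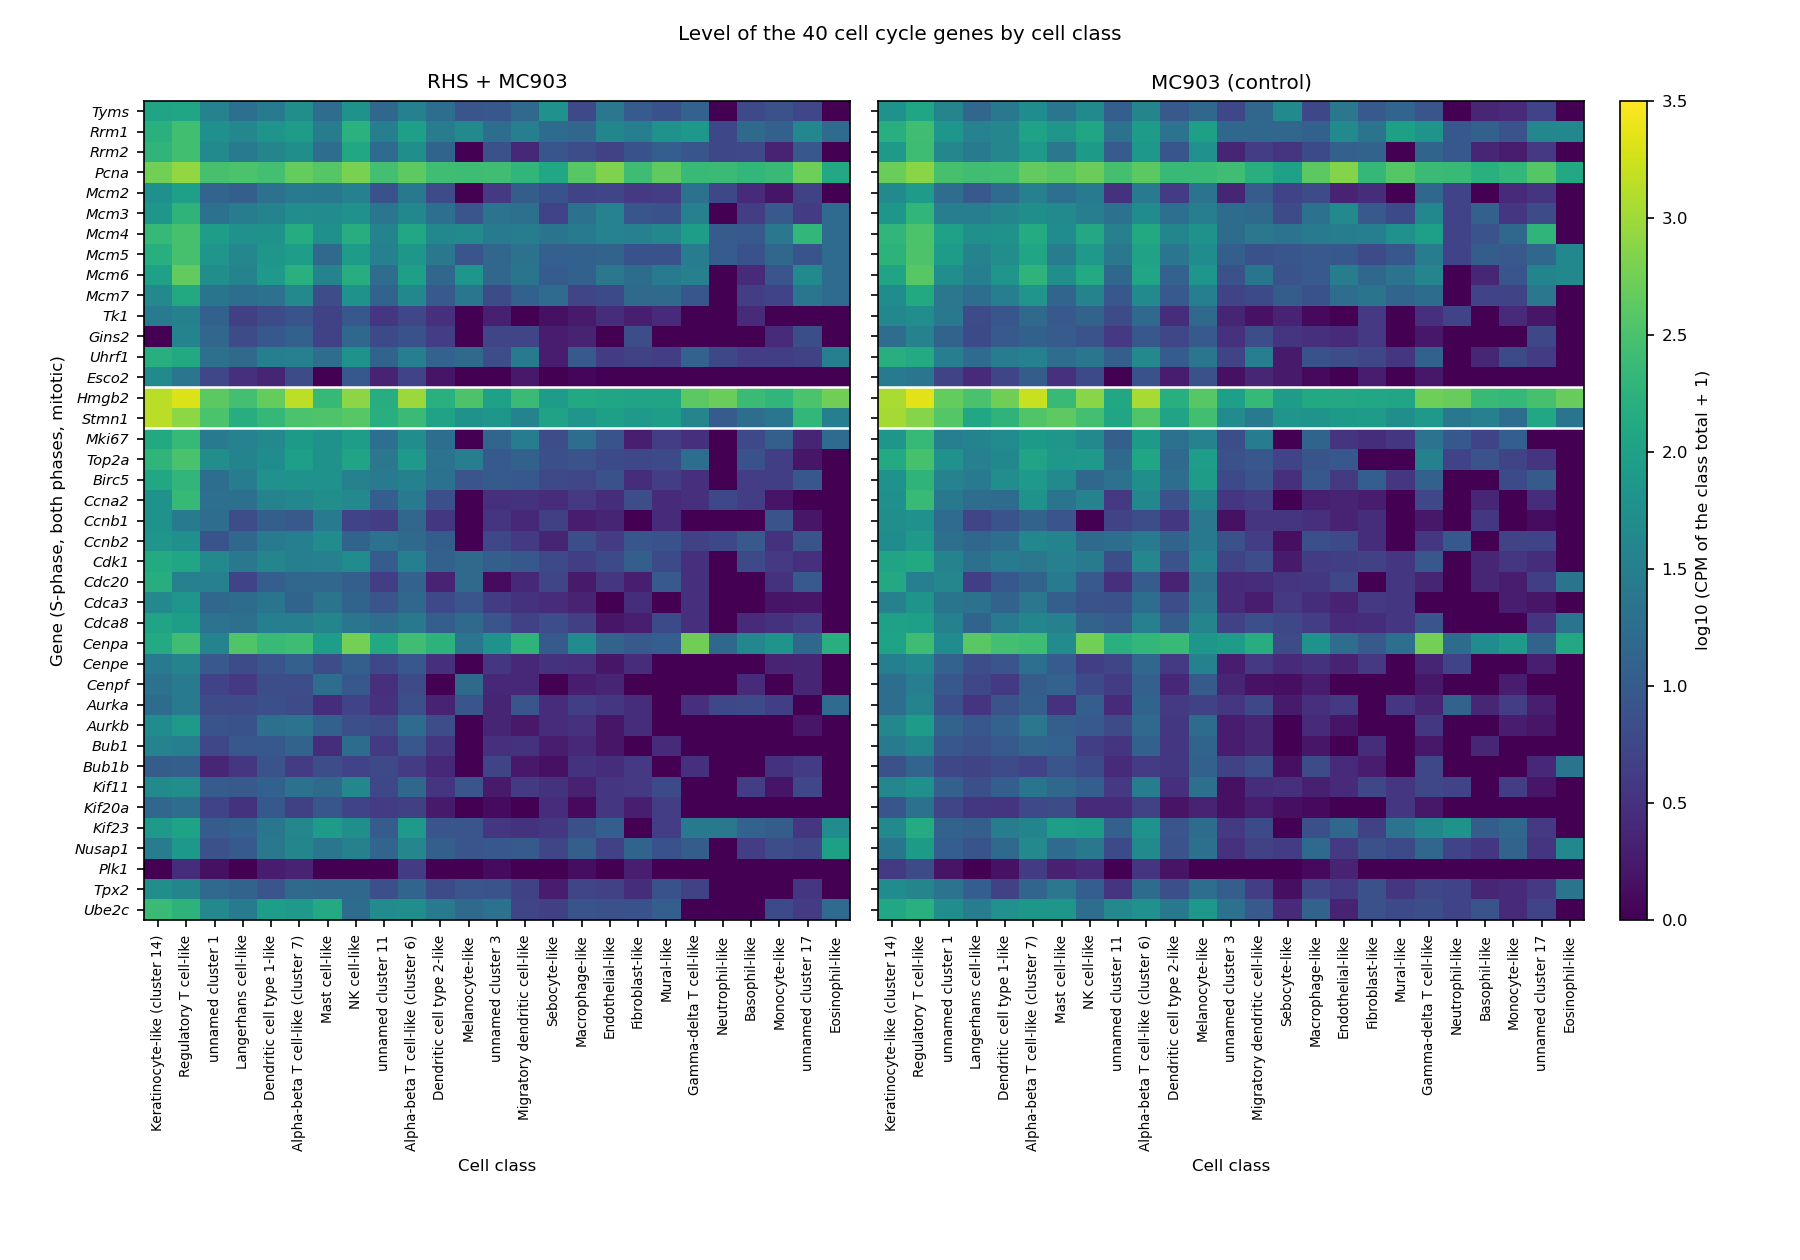
Level of each member (lines of the grid) in each class (columns) as log10(CPM + 1), in the RHS library on the left and the control library on the right. The regulatory T cell-like class and keratinocyte cluster 14 are bright across most members, and Pcna, Hmgb2 and Cenpa are bright in many other classes.

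In the whole libraries, 866 of 12953 RHS cells (6.69%, 6.26 to 7.13) and 1128 of 12577 control cells (8.97%, 8.48 to 9.48) had UMIs of at least 3 mitotic genes. For S-phase genes the share was 12% in RHS (1558 cells) and 15.1% in control (1904 cells). Over all 40 genes it was 39.9% in RHS and 41.0% in control. Cluster 14 held 3.23% of the RHS cells with 3 mitotic genes and 26.2% of the control ones, although it was 0.394% of RHS cells and 3.92% of control cells. It held 51 RHS cells and 493 control cells, in a sort meant for CD45+ cells, and a difference in the skin and a difference in the sort cannot be told apart. Without cluster 14 the ratio of the mitotic shares, RHS over control, was 0.942, against 0.745 with it. Among the classes with Ptprc, 7.70% of 9921 RHS cells (7.18 to 8.24) and 8.30% of 8285 control cells (7.72 to 8.92) had 3 mitotic genes, a ratio of 0.927 (0.836 to 1.03). The S-phase share in those classes was 12.5% in RHS and 12.7% in control, a ratio of 0.985 (0.907 to 1.07). The intervals of both ratios hold 1.

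Cells positive for mitotic genes were deeper than the rest. RHS cells with 3 mitotic genes had a median of 6323 UMIs against 2847 in the other RHS cells, and control ones had 7684 against 2870. They were 6.69% of the RHS cells and held 12% of the UMIs, and they were 8.97% of the control cells and held 17.4% of the UMIs. When every cell was thinned to 1000 UMIs, with 1452 RHS and 1074 control cells left out as shallower, the mitotic share was 2.77% in RHS and 3.15% in control (ratio 0.881, 0.756 to 1.03). Most cells with at least 3 mitotic genes were well past the limit: the median was 7 mitotic genes in RHS and 8 in control, and 302 RHS and 471 control cells had 10 or more. Just at the limit, 167 RHS and 184 control cells had exactly 3 mitotic genes, and just below it 870 RHS and 889 control cells had exactly 2.

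The class with the largest share was cluster 14, in which 28 of 51 RHS cells (54.9%, 40.3 to 68.9) and 295 of 493 control cells (59.8%, 55.4 to 64.2) had 3 mitotic genes. Regulatory T cell-like cells came next, with 130 of 509 RHS cells (25.5%, 21.8 to 29.6) and 165 of 547 control cells (30.2%, 26.3 to 34.2). After thinning, these classes were close to each other: cluster 14 had 18.6% in RHS and 15.2% in control, and regulatory T cell-like cells had 16.7% in RHS and 17.8% in control. In Langerhans cell-like cells, which sample antigen in the epidermis, the share was 15.9% in RHS and 13.7% in control. In the unnamed cluster 1, led by keratin genes, 52 of 405 RHS cells (12.8%) and 112 of 665 control cells (16.8%) passed, a ratio of 0.762 (0.538 to 1.07). Dendritic cell type 1-like cells had 13.4% in RHS and 11.5% in control, and mast cell-like cells had 12.5% in RHS and 10.2% in control. The intervals of the ratios of these 6 classes all hold 1. After thinning, Langerhans cell-like cells had 3.35% in RHS and 2.89% in control, and cluster 1 had 4.01% in RHS and 4.55% in control. Dendritic cell type 1-like cells had 4.33% in RHS and 3.12% in control, and mast cell-like cells 7.44% in RHS and 4.55% in control. Cluster 7 then had 5.93% in RHS and 7.17% in control. Below cluster 14 and regulatory T cell-like cells, the order of classes therefore changed with depth.

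At the low end were classes in which almost no cell passed. Neutrophil-like cells had 0 of 168 in RHS, which allows a share of up to 2.17%, and 1 of 183 in control. Eosinophil-like cells had 0 of 95 in RHS and 0 of 66 in control, at a median of 620 UMIs in RHS and 647 in control, so up to 3.81% in RHS and 5.44% in control is allowed. Monocyte-like cells had 1 of 411 in RHS and 0 of 285 in control at a median of 4205 UMIs in RHS and 4271 in control. The neutrophil-like value is the background share of a cell type that does not divide, at a median of 1178 UMIs in RHS and 1275 in control.

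Of the 25 classes, 2 had a mitotic share whose ratio had an interval below 1, and none had one above 1. The 2 were clusters 6 and 7. Eosinophil-like cells gave no ratio. In cluster 6, 67 of 1050 RHS cells (6.38%, 4.98 to 8.03) and 109 of 993 control cells (11%, 9.1 to 13.1) had 3 mitotic genes, a ratio of 0.581 (0.422 to 0.795). Thinned to 1000 UMIs, the ratio in cluster 6 was 0.6 (0.388 to 0.917). Thinned to 2000 UMIs, which left out the shallower cells, it was 0.817. In cluster 7 the share was 9.96% in RHS and 13.7% in control (ratio 0.726, 0.539 to 0.988). Thinned, it was 5.93% in RHS and 7.17% in control, and the interval of the ratio held 1 (0.827, 0.544 to 1.29). The S-phase share was 12.4% in RHS and 16.8% in control in cluster 6 and 16.7% in RHS and 21.5% in control in cluster 7. Thinned to 1000 UMIs, the S-phase ratios were 0.702 (0.466 to 1.05) in cluster 6 and 0.947 (0.624 to 1.47) in cluster 7, and both intervals hold 1. RHS cells were shallower in both, with a median of 1900 UMIs in RHS and 2269 in control in cluster 6 and 2065 in RHS and 2349 in control in cluster 7.

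**Figure D3:**
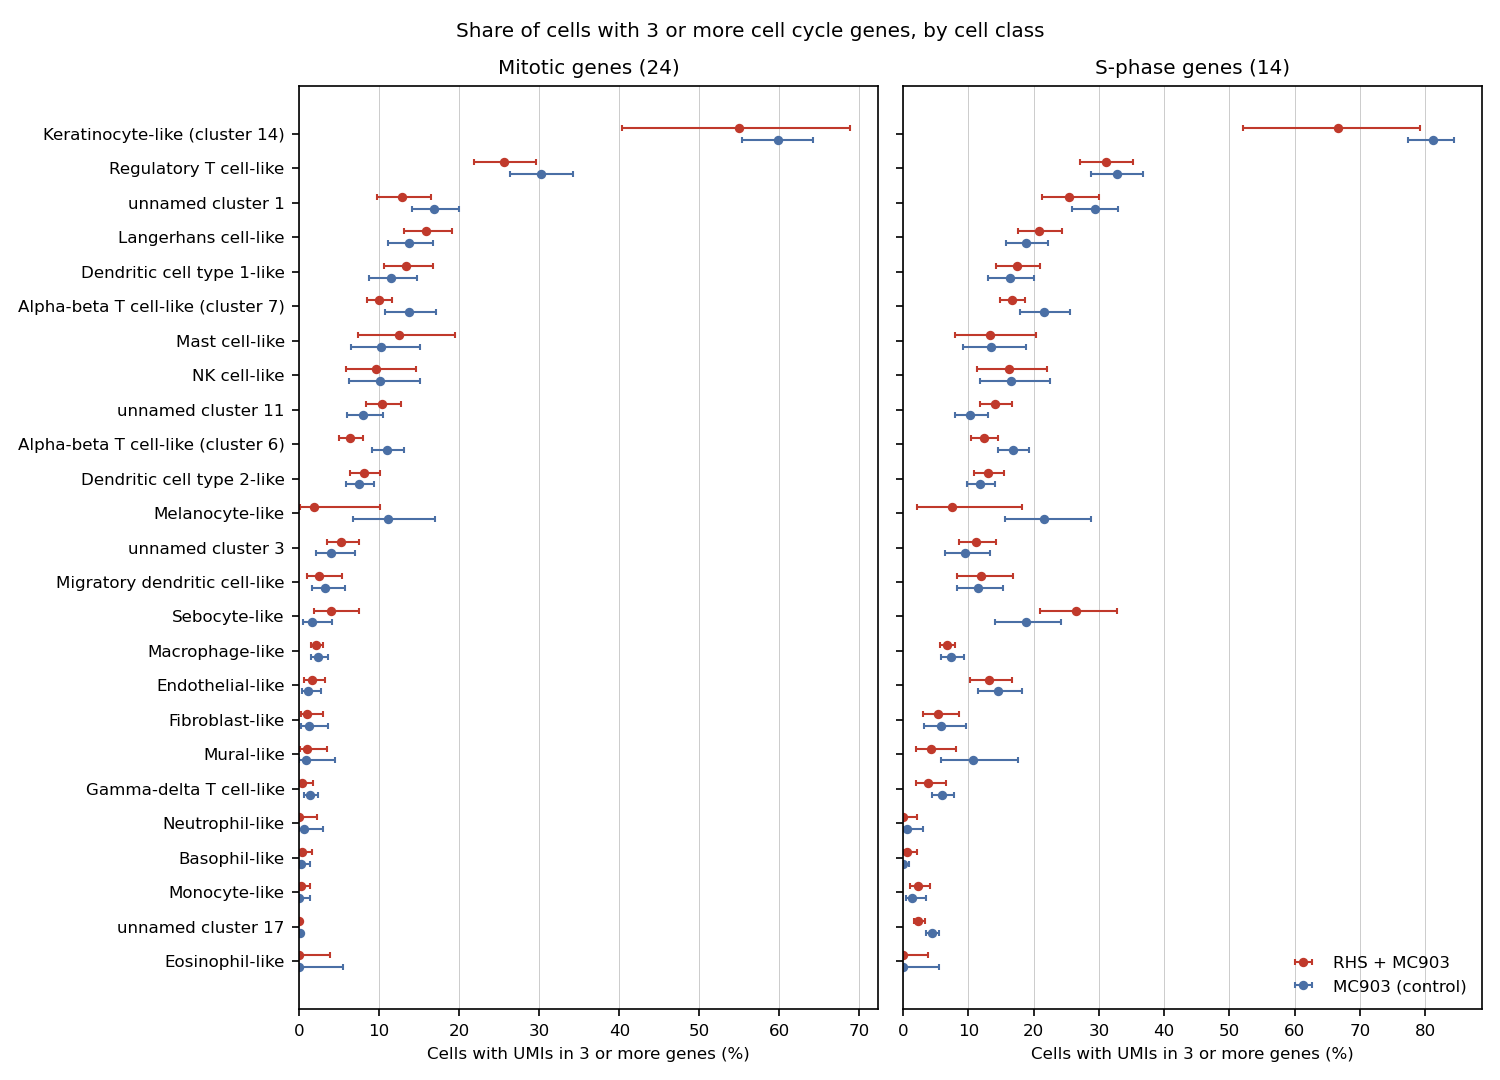
Percent of cells with UMIs of at least 3 mitotic genes (left) and at least 3 S-phase genes (right) in each class, with exact 95% intervals for counting error, in RHS (red) and control (blue). Keratinocyte cluster 14 and regulatory T cell-like cells are highest for mitotic genes, and cluster 6 lies lower in RHS (6.38%) than in control (11%).

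The S-phase and mitotic genes did not mark the same cells in every class. Of all cells with 3 mitotic genes, 79.2% in RHS and 84.1% in control also had 3 S-phase genes. In cluster 14 this was 96.4% in RHS and 95.6% in control, and in regulatory T cell-like cells it was 93.9% in RHS and 89.1% in control. The reverse share was smaller, since 44.0% of RHS cells and 49.8% of control cells with 3 S-phase genes also had 3 mitotic genes. In endothelial-like cells the gap was wide: 13.1% of them in RHS and 14.6% in control had 3 S-phase genes, and of these 6.78% in RHS and 4.76% in control had 3 mitotic genes. Sebocyte-like cells likewise had 26.6% in RHS and 18.8% in control for S-phase genes, against 3.98% in RHS and 1.63% in control for mitotic genes. Their median was 9911 UMIs in RHS and 10501 in control. After thinning, 3 of 393 endothelial-like cells in RHS (0.763%) and 4 of 363 in control (1.10%) had 3 S-phase genes. For mitotic genes these were 1 of 393 in RHS and 0 of 363 in control. Thinned sebocyte-like cells had 0 of 198 in RHS and 0 of 208 in control for either group of genes. The wide gap was therefore seen at full depth, and too few thinned cells passed to compare the groups of genes.

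Cenpa was present in many cells with no UMI of any of the other 23 mitotic genes. Among such cells it had a UMI in 23.4% in RHS and 24.9% in control, and the share depended on the class. In Langerhans cell-like cells it was 61.6% in RHS (56.5 to 66.6) and 75.4% in control (70.8 to 79.6). In NK cell-like cells it was 55.0% in RHS and 64.7% in control, at a median of 2096 UMIs in RHS and 2574 in control. Gamma-delta T cell-like cells had it in 43.2% in RHS and 50.1% in control, while 1 of 319 of all their RHS cells and 11 of 834 control cells had 3 mitotic genes. In dendritic cell type 2-like cells it was 50.2% in RHS and 58.2% in control, in regulatory T cell-like cells 34.5% in RHS and 30.4% in control, in cluster 7 33.0% in RHS and 30.6% in control, and in cluster 6 27.2% in RHS and 26.0% in control. Endothelial-like cells had Cenpa in 2.14% in RHS and 4.31% in control, at a median of 2324 UMIs in RHS and 2833 in control, and sebocyte-like cells had it in 3.59% in RHS and 4.08% in control at a median of 9245 UMIs in RHS and 9862 in control. In neutrophil-like cells the share was 1.25% in RHS and 1.86% in control, at a median of 1173 UMIs in RHS and 1232 in control. The part of depth in these shares was not tested. By level, NK cell-like cells had 579 CPM of Cenpa in RHS and 566 CPM in control, and gamma-delta T cell-like cells had 554 CPM in RHS and 578 CPM in control.

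**Figure D4:**
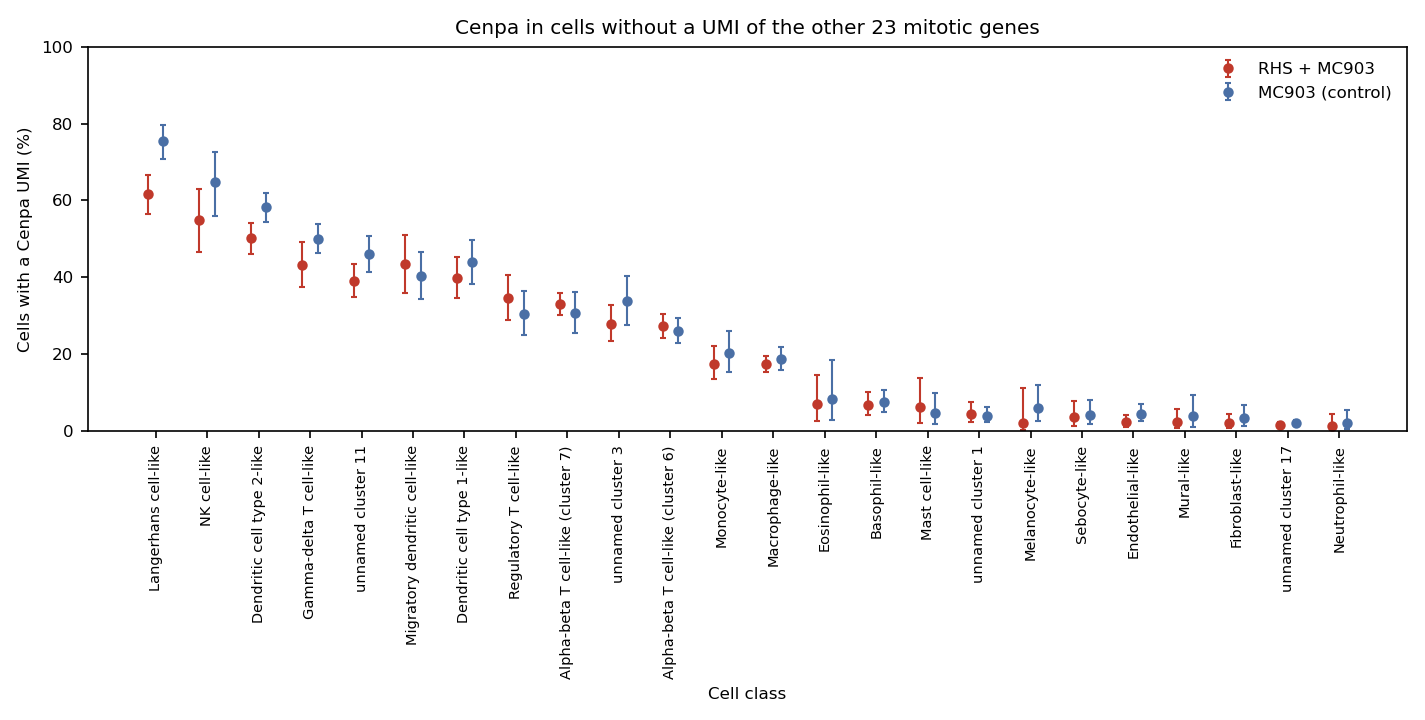
Percent of cells with a Cenpa UMI among cells that had no UMI of the other 23 mitotic genes, by class, with exact 95% intervals for counting error, in RHS (red) and control (blue). Langerhans cell-like cells (61.6% in RHS and 75.4% in control) and NK cell-like cells (55.0% in RHS and 64.7% in control) lie high, and neutrophil, endothelial, fibroblast and sebocyte-like cells lie near 0.

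The other broad members each had their own pattern in cells without mitotic genes. Pcna had a UMI in 74.8% of such macrophage-like cells in RHS and 79.4% in control, against 19.6% in RHS and 20.3% in control in neutrophil-like cells. Hmgb2 had one in 75.3% of such cluster 7 cells in RHS and 75.6% in control, and in 43.7% in RHS and 39.9% in control in neutrophil-like cells. Stmn1 had one in 45.3% of such sebocyte-like cells in RHS and 35.6% in control, against 1.27% in RHS and 3.16% in control in neutrophil-like cells. Depth differed between these classes. The median UMIs, RHS then control, were 4748 and 5128 in macrophage-like, 9075 and 9335 in sebocyte-like, 1868 and 1919 in cluster 7, and 1168 and 1229 in neutrophil-like cells. By level, Pcna had 391 CPM in RHS and 412 CPM in control in macrophage-like cells. Neutrophil-like cells had 243 CPM in RHS and 227 CPM in control. The part of depth in these shares was not tested.

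Members were then compared by level between the whole libraries. A gene was counted as higher or lower when its CPM differed by at least 1.5-fold and it had at least 20 counts over both libraries. Of the 40 members, 8 were lower and 0 were higher in RHS, beside 16.7% lower and 3.90% higher among 16244 genes. The share of members that were lower, 20%, is near that background. The 8 were Tk1, Uhrf1 and Esco2 of S phase and Ccnb1, Cdc20, Cenpe, Cenpf and Plk1 of mitosis. The median log2 ratio, RHS over control, was -0.39 over the members and -0.11 over all genes. Tk1, the thymidine kinase that salvages nucleotides for DNA synthesis, differed most, with 3.72 CPM in RHS (192 counts) and 10.1 CPM in control (542 counts), a ratio of 0.368 (0.311 to 0.435). Cdc20, the activator of the anaphase-promoting complex, had 7.1 CPM in RHS and 17.5 CPM in control (0.405, 0.358 to 0.457). Pcna had 352 CPM in RHS and 338 CPM in control (1.04), and Nusap1, a spindle protein, had 15.4 CPM in RHS and 14.3 CPM in control (1.08).

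Among the classes with Ptprc, 2 members, Tk1 and Plk1, were lower in RHS and 0 were higher, beside 11.2% lower and 3.93% higher of 14493 genes. The median log2 ratio was -0.17 over the members and -0.04 over all genes. Tk1 had 3.65 CPM in RHS and 7.05 CPM in control there (0.519, 0.421 to 0.636). Cdc20 had a ratio of 0.887, Ccnb1 of 0.832 and Uhrf1 of 0.883, and all 3 were past 1.5-fold in the whole libraries. Mki67 had a ratio of 0.898 and Top2a of 0.882.

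Members were compared within the 6 classes with the highest thinned share of positive cells over all 40 genes. Their summed mitotic counts, RHS over control, lay on both sides of 1. The ratio was 1.37 (1.26 to 1.5) in keratinocyte cluster 14, 1.2 (1.07 to 1.35) in NK cell-like cells and 0.948 (0.908 to 0.99) in regulatory T cell-like cells. It was 0.904 (0.846 to 0.967) in cluster 7, 0.895 (0.841 to 0.952) in cluster 6 and 0.766 (0.708 to 0.829) in the keratin-rich cluster 1. These intervals take each UMI as a separate draw and leave out the spread between cells, so they are narrower than the intervals of the shares. The differences between classes were not tested.

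Regulatory T cell-like cells had the largest mitotic share among the classes with Ptprc, and few of their members differed. Of 39 members with enough counts, 2 were lower in RHS (Tk1 and Ccnb1), beside 10.8% of 8826 genes, and 0 were higher, beside 4.29%. Ccnb1, the cyclin that drives entry into mitosis, had 27.5 CPM in RHS (44 counts) and 57.2 CPM in control (115 counts), a ratio of 0.481 (0.332 to 0.687). Its partner cyclin Ccna2 had 223 CPM in RHS and 234 CPM in control (0.953). Pcna had 862 CPM in RHS and 753 CPM in control (1.15, 1.06 to 1.23), and Mcm6 of the replicative helicase had 449 CPM in RHS and 394 CPM in control (1.14, 1.03 to 1.26). Both ratios are within 1.5-fold. Mcm5 (0.923), Top2a (1.02) and Cenpa (1.01) had intervals that hold 1, and so did Mcm2, whose ratio of 1.17 was the highest of the class. The heat shock genes Hspa1a and Hspa1b, which tissue digestion can induce, were higher in RHS in these cells. Hspa1a had 150 CPM in RHS and 20.9 CPM in control, and the median log2 ratio of the 14 digestion-induced genes was 0.39; their part in the result was not tested.

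In cluster 6, 8 of 21 measured mitotic members and 2 of 14 S-phase members were lower in RHS. Of all 37 members with enough counts, 10 were lower, beside 9.30% of 9170 genes, and 1 was higher, beside 4.90%. The 10 were Tk1 and Esco2 of S phase and Mki67, Birc5, Ccna2, Ccnb2, Cenpe, Cenpf, Aurka and Kif11 of mitosis. Mki67 had 51.0 CPM in RHS and 79.8 CPM in control (0.640, 0.504 to 0.809). Tk1 had 4.47 CPM in RHS (10 counts) and 14.6 CPM in control (37 counts), a ratio of 0.306 (0.136 to 0.628). Kif11, the kinesin that pushes the spindle poles apart, had 14.3 CPM in RHS and 28.8 CPM in control (0.497). Cenpa went the other way within 1.5-fold, with 264 CPM in RHS and 206 CPM in control (1.28, 1.14 to 1.45). Without Cenpa, the summed mitotic ratio of cluster 6 was 0.781. Ccnb1 was the higher member, at 30 counts in RHS and 15 in control. Top2a had a ratio of 0.694 and Mcm6 of 0.832, while Pcna (1.04), Mcm4 (0.919) and Kif23 (1.18) had intervals that hold 1. Here Hspa1a was lower in RHS, with 138 CPM in RHS and 340 CPM in control, and the median log2 ratio of the digestion-induced genes was -0.15; their part in the result was not tested.

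In cluster 7, of 37 members with enough counts, 7 were lower in RHS, beside 9.0% of 8933 genes, and 0 were higher, beside 7.51%. The 7 were Mcm7, Tk1, Esco2, Cdca3, Cenpe, Cenpf and Aurka. Mcm7, a helicase subunit, had 43.2 CPM in RHS and 64.9 CPM in control (0.665), and Tk1 had 7.04 CPM in RHS and 15.4 CPM in control (0.457, 0.238 to 0.887). Mki67 had 79.9 CPM in RHS and 79.5 CPM in control, a ratio of 1.01 with an interval of 0.794 to 1.28, and Top2a had 94.6 CPM in RHS and 110 CPM in control (0.858, 0.699 to 1.06). Pcna (1.06), Mcm4 (1.01), Mcm6 (0.887), Cenpa (1.00) and Cdk1, whose ratio of 1.34 was the highest of the class, also had intervals that hold 1. The median log2 ratio over the digestion-induced genes was 0.03 in this cluster.

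In NK cell-like cells only 22 of the 40 members had enough counts, and 9 of them were higher in RHS, beside 9.03% of 6016 genes, and 0 were lower, beside 10.8%. The 9 were Rrm1, Rrm2, Mcm3, Mcm7, Uhrf1, Mki67, Birc5, Cdk1 and Kif11. Mki67 had 88.7 CPM in RHS (43 counts) and 42.9 CPM in control (25 counts), a ratio of 2.07 (1.24 to 3.53). Rrm1, the large subunit of ribonucleotide reductase, had 173 CPM in RHS and 113 CPM in control (1.53, 1.10 to 2.15). Kif11 had 20 counts in RHS and 6 in control (4.01, 1.55 to 12.2). Pcna had 617 CPM in RHS and 509 CPM in control (1.21, 1.03 to 1.43), and Cenpa (1.02), Mcm6 (1.11), Top2a (1.45) and Kif23 (0.679, the lowest of the class) had intervals that hold 1. The mitotic share was 19 of 198 cells (9.60%) in RHS and 20 of 199 cells (10.1%) in control, a ratio of 0.955 (0.482 to 1.89). Hspa1a had 177 CPM in RHS and 20.6 CPM in control in NK cell-like cells, and the median log2 ratio of the digestion-induced genes was 0.28; their part in the result was not tested.

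In keratinocyte cluster 14, 9 of 39 members with enough counts were higher in RHS, beside 12.6% of 9169 genes, and 2 were lower, beside 18.4%. The RHS side rests on 51 cells. The 9 were Tyms, Rrm2, Esco2, Mki67, Birc5, Bub1b, Kif20a, Kif23 and Ube2c. Rrm2, the small subunit of ribonucleotide reductase, had 194 CPM in RHS (59 counts) and 76.8 CPM in control (317 counts), a ratio of 2.53 (1.88 to 3.35). Ube2c, the ubiquitin-conjugating enzyme of the anaphase-promoting complex, had 240 CPM in RHS and 126 CPM in control (1.92, 1.48 to 2.45). Mki67 had 132 CPM in RHS and 69.8 CPM in control (1.89), and Top2a had 194 CPM in RHS and 136 CPM in control (1.42, 1.07 to 1.86). Pcna (1.13), Mcm4 (1.09), Mcm5 (0.895) and Cdc20 (1.17) had intervals that hold 1. The lower members were Tk1 and Gins2, a subunit of the replicative helicase, which had 0 counts in RHS and 70 in control, a ratio of at most 0.582 with RHS set at a floor of 3 counts. The share of cells went the other way, with 54.9% in RHS and 59.8% in control at medians of 5101 UMIs in RHS and 7691 UMIs in control, and the interval of the ratio held 1. Digestion-induced genes had a median log2 ratio of -0.24 here.

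In the unnamed cluster 1, led by Krt6a, Krtdap, Krt10, Krt1 and Krt5, 12 of 39 members with enough counts were lower in RHS, beside 10.7% of 9724 genes, and 0 were higher, beside 5.53%. Of the 12, 9 were mitotic: Birc5, Ccnb2, Cdca3, Cdca8, Cenpf, Aurkb, Bub1, Bub1b and Nusap1. Birc5, Cdca8 and Aurkb encode the chromosomal passenger complex, which corrects how chromosomes attach to the spindle. Birc5 had 17.5 CPM in RHS and 34.5 CPM in control (0.508). The other 3 were Mcm3, Tk1 and Uhrf1, and Tk1 had 11.2 CPM in RHS and 24.4 CPM in control (0.461). Top2a had 52.5 CPM in RHS and 57.8 CPM in control (0.909, 0.720 to 1.14), and Pcna had 297 CPM in RHS and 298 CPM in control. Bub1b was lowest by ratio, at 3 counts in RHS and 18 in control, and Cdk1 was highest (1.22, 0.929 to 1.59). Cenpa (0.716) and Mcm5 (0.792) were lower within 1.5-fold, and Ube2c (0.844) and Mcm4 (0.932) had intervals that hold 1. The median log2 ratio was -0.12 over S-phase members, -0.47 over mitotic members and -0.01 over all genes. Hspa1a had 1293 CPM in RHS and 582 CPM in control in this cluster, and the median log2 ratio of the digestion-induced genes was 0.37; their part in the result was not tested.

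**Figure D5:**
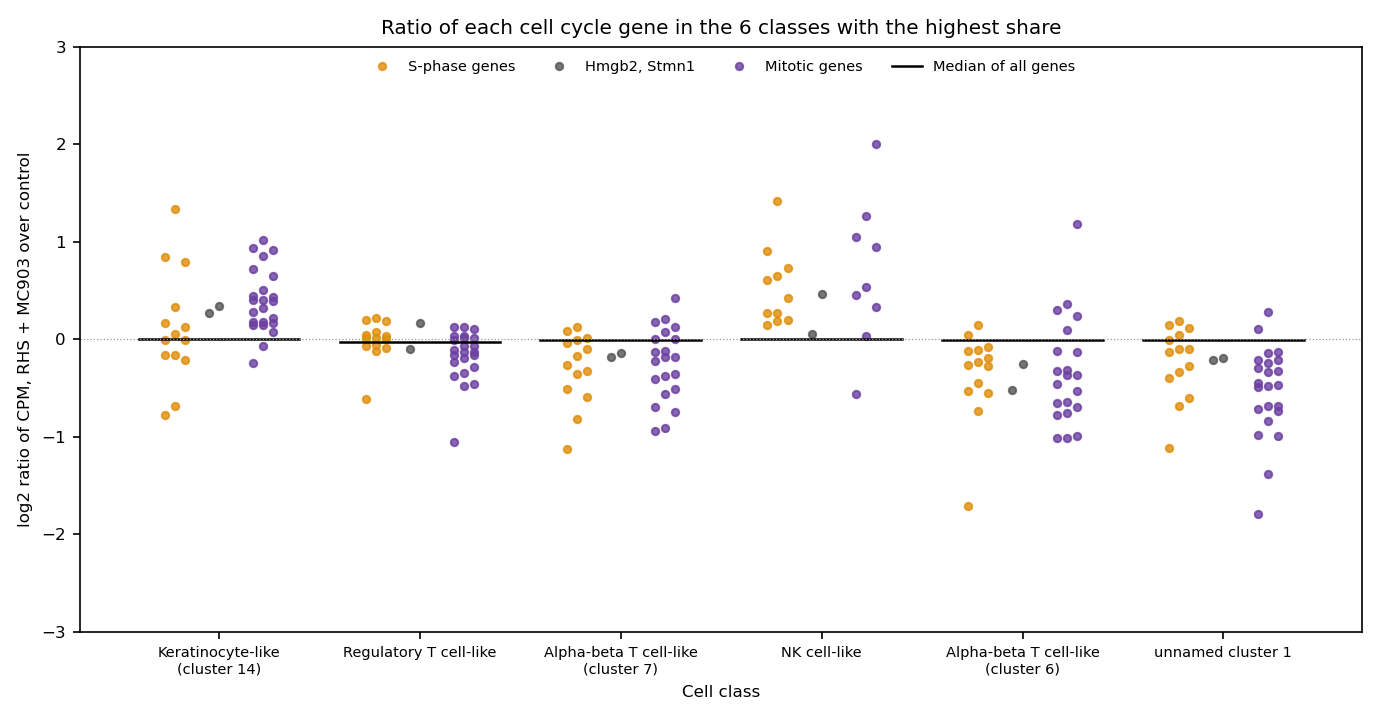
Log2 ratio of CPM, RHS over control, of each member with at least 20 counts (points) in the 6 classes with the highest thinned shares, coloured by S phase (orange), mitosis (purple) and both (grey); the black line is the median of all genes in the class. Points lie mostly above the line in NK cell-like cells and mostly below it in cluster 6 and cluster 1; Gins2 in keratinocytes is drawn at its upper bound.

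Tk1 was lower in RHS past 1.5-fold in 5 of the 6 classes. Its ratio was 0.306 in cluster 6, 0.457 in cluster 7, 0.461 in cluster 1 and 0.654 in regulatory T cell-like cells. In keratinocyte cluster 14 it had 8 counts in RHS and 175 in control, with an interval that holds 1 (0.621, 0.264 to 1.25), and in NK cell-like cells it had too few counts (4 in RHS and 7 in control). The member lower in the next largest number of classes was Cenpf, a kinetochore protein, with 3 of the 6. How many of all genes were lower in as many classes was not counted, so these counts have no background. Of the genes high in both phases, Hmgb2 and Stmn1 stayed within 1.5-fold in all 6 classes. Hmgb2 had ratios from 0.841 in cluster 6 to 1.21 in keratinocyte cluster 14, and Stmn1 had ratios from 0.695 in cluster 6 to 1.38 in NK cell-like cells.

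Genes of the same pathways outside the 40 were described from 4 fixed lists. In cluster 6, 16 of 45 measured other replication genes were lower in RHS and 0 higher, and 13 of 46 other mitotic genes were lower and 2 higher, beside 9.30% lower and 4.90% higher of all genes there. Cks2, a partner of the cyclin-dependent kinases, was higher there, with 189 CPM in RHS and 118 CPM in control (1.60, 1.38 to 1.87). In NK cell-like cells 12 of 26 measured other replication genes were higher and 0 lower, whereas 1 of 17 other mitotic genes was higher and 0 lower, beside 9.03% higher and 10.8% lower of all genes there. In cluster 14, 11 of 48 other replication genes were higher and 8 lower, and 11 of 53 other mitotic genes were higher and 9 lower, beside 12.6% higher and 18.4% lower of all genes. In regulatory T cell-like cells 6 of 50 other replication genes were lower and 1 higher, near the 10.8% and 4.29% of all genes. The G1 cyclins and their kinases, which act before S phase, had median log2 ratios between -0.10 and 0.12 in the 6 classes. The cell cycle inhibitors and DREAM subunits had medians between -0.03 and 0.14. Cdkn1a, the p21 inhibitor, had 235 CPM in RHS and 129 CPM in control in NK cell-like cells (1.83, 1.35 to 2.48). Ccnd1, the G1 cyclin D1, had 20.2 CPM in RHS and 40.4 CPM in control in cluster 1 (0.500, 0.350 to 0.700).

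Genes outside the 40 were also ranked by how much higher they were in cells with UMIs of at least 3 members than in the other cells of the same class. The measure was the mean over 23 classes of log2 of the ratio of CPM, with 10 CPM added to both sides. Pclaf, whose product binds the PCNA clamp, was highest at 2.60 and above 0 in all 23 classes. It was followed by Cks1b at 1.35, the alpha-tubulin gene Tuba1b at 1.21, the DNA ligase gene Lig1 at 1.16, the condensin gene Smc2 at 1.15 and the kinetochore gene Spc24 at 1.15. Racgap1, Tubb5, Tacc3, Mad2l1 and Fen1 lay between 0.94 and 1.00. Pclaf, Tuba1b and Tubb5 took part in the clustering and belonged to none of the lists. In cells with at least 3 mitotic genes, over 13 classes, Pclaf stood at 4.13 and Tuba1b at 2.92. By that measure the median was 1.36 over 48 other replication genes, 1.60 over 50 other mitotic genes, 0.25 over G1 cyclins and their kinases, 0.06 over inhibitors and -0.03 over 11912 genes. The digestion-induced genes had a median of -0.30, so they were lower in cells with mitotic genes. The likeness describes these cells and says nothing of shared control.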

How the data were processed

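The authors deposited whole-number UMI counts per gene and cell barcode, 1 matrix for each of 3 libraries, and these counts were used as deposited. The submitters' processing notes name GRCm39, R 3.6.0, Seurat 5.1.0 and Cell Ranger, and the header of the ganglia matrix names Cell Ranger 7.1.0. For the skin libraries the program that called barcodes was not given in the sources used here (GEO's labels and the file headers). All their barcodes held at least 500 UMIs.

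Cells with under 200 genes or over 20% mitochondrial UMIs were left out, and Scrublet calls of doublets were removed (115 RHS and 146 control cells). Scanpy 1.11.5 (Python 3.11.15, numpy 2.4.6, scipy 1.17.1, scikit-learn 1.9.0, igraph 0.11.9, matplotlib 3.10.9) scaled counts to 10000 UMIs per cell, chose 2000 variable genes without the cell cycle genes, and clustered both skin libraries together on 30 components and 15 neighbours at resolution 1.0. A cluster was named where at least 3 markers of a type were in 5% of its cells and 2-fold above the rest, and stayed unnamed where its leading genes went against the type. Shares have exact binomial intervals, levels exact Poisson intervals, and ratios conditional intervals, all at 95%. The conditional intervals are exact for ratios of levels and approximate for ratios of shares. UMIs of 1 cell are not independent draws. The floor for a count of 0 was 3 counts. Thinning drew 1000 UMIs per cell. The calling step was tested on simulated data, with independent draws and changes larger than 1.5-fold. That test cannot show how calls near the 1.5-fold limit behave. Promoters came from RefSeq.

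Named within each class were the 3 S-phase and 3 mitotic members with the most counts and the members with the highest and lowest ratio. From each other list the 2 genes at either end were eligible for naming, and 12 genes outside the 40 by concentration, of which 1 is not reported here. Mki67, Top2a, Pcna, Hmgb2 and Stmn1 were always given. Members called past 1.5-fold were named as well. The members and lists were chosen with earlier results of these data known, and the naming rule for clusters, the split by Ptprc and the removal of cluster 14 or of Cenpa were set after the data were seen. Alternatives to the filters, depth, clustering and thresholds were run. No sample was left without a group. The ganglia library, from mice treated with RHS and MC903, entered no comparison.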

Additional observations from a re-analysis of the deposited data

Results flagged for a closer look

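The ratio of summed mitotic counts, RHS over control, lay on both sides of 1 among the 6 classes compared. It was 1.37 in keratinocyte cluster 14 and 1.2 in NK cell-like cells. It was 0.948 in regulatory T cell-like cells, 0.904 in cluster 7, 0.895 in cluster 6 and 0.766 in the keratin-rich cluster 1. These 6 are set out because the ratios of 1 contrast lay on both sides of 1. Their intervals leave out the spread between cells. At full depth the ratio of the shares of cells positive for mitotic genes was 0.918 (0.599 to 1.354) in cluster 14. It was 0.955 (0.482 to 1.885) in NK cell-like cells. Thinned, both were above 1, and their intervals held 1. In clusters 6 and 7 the full-depth interval lay below 1, and in regulatory T cell-like cells and cluster 1 it held 1. Cluster 14 rests on 51 RHS cells. The difference between classes was not tested, since each group was 1 library.

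The ganglia library is set out because the 40 genes were also seen in data outside the skin comparison. Its title names skin while its source names sympathetic ganglia, and the source was followed. Of its 4507 nuclei, 2.62% (2.17 to 3.13) had UMIs of at least 3 of the 40 genes, 0.799% (0.560 to 1.10) of at least 3 S-phase genes and 1.11% (0.825 to 1.46) of at least 3 mitotic genes. A count of 0 nuclei, set at the floor of 3, would stand at 0.0666%, and no ganglia of control mice were analysed here. These were nuclei at a median of 1542 UMIs, so the shares are not comparable with those of the skin cells.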

How the results depend on the processing

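Of 58 results on shares, 756 alternatives gave 689 values within the counting interval, 64 outside it, and 3 on the other side of 1 from a ratio whose interval did not hold 1. Of 72 results on summed counts, 361 alternatives gave 275, 79 and 7. Values that crossed 1 from a ratio whose interval held 1 are counted in the first 2 groups and numbered 117 for shares and 13 for sums. The cause was not tested for any of them.

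The ratio, RHS over control, of the library share for all 40 genes was 0.973. It was 0.818 with at least 5 members, 0.929 without Hmgb2 and Stmn1, 0.920 without Pcna, 0.910 thinned to 1000 UMIs, 0.874 thinned to 2000, 1.02 among classes with Ptprc and 1.02 without cluster 14. For S-phase genes (0.795) it was 0.958 with at least 2 genes, 0.627 with 5, 0.863 thinned to 1000, 0.712 without Pcna, 0.985 with Ptprc, 0.907 with 1 mix of classes and 0.949 without cluster 14. For mitotic genes (0.745) it was 0.836 with at least 2, 0.881 thinned to 1000, 0.927 with Ptprc, 0.897 with 1 mix and 0.942 without cluster 14. Among class shares of mitotic genes, cluster 1 (0.762) had 0.498 at resolution 0.5 and 1.23 with libraries clustered apart, cluster 6 (0.581) had 0.809 with at least 2 genes and 0.817 thinned to 2000, and regulatory T cell-like cells (0.847) had 1.16 thinned to 2000.

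Summed mitotic ratios moved in cluster 1 to 0.885 with the neutrophil level subtracted, 0.877 with at least 500 genes per cell and 0.843 with cell cycle genes kept in the clustering. They moved in cluster 6 to 0.977 with that level subtracted, 0.965 with doublets kept and 0.781 without Cenpa, in cluster 7 to 0.978 with that level subtracted, in NK cell-like cells to 1.44 without Cenpa, and in keratinocyte cluster 14 to 1.22 with doublets kept. The neutrophil-like mitotic level was 11 counts (52.4 CPM) in RHS and 32 counts (130 CPM) in control, a ratio of 0.404. More was therefore subtracted from control. A mitotic ratio above 0.404 rose by construction wherever both levels exceeded the subtracted one, as in clusters 1, 6 and 7.

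Of results whose interval did not hold 1, values on the other side of 1 were, in cluster 17, 1.39 (all 40) and 1.54 (S phase) thinned to 1000, and 1.07 (all 40) in gamma-delta T cell-like cells thinned to 2000. With cell cycle genes kept in the clustering they were 1.01 (S-phase sum, cluster 1) and 0.965 (mitotic sum, dendritic cell type 1-like). For mitotic sums they were 2.69 in macrophage-like and 1.16 in dendritic cell type 2-like cells with the neutrophil level subtracted, 1.07 in the same dendritic cells without Cenpa, and in cluster 11 0.972 with doublets kept and 0.935 with at least 500 genes.

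Counts of members follow, with the percent of all genes in brackets. At 2-fold, those lower in RHS were 3 of 40 in the libraries (7.11%), 0 of 40 with Ptprc (4.31%) and 0 of 39 in cluster 14 (8.73%). They were 1 of 39 in regulatory T cell-like cells (3.46%), 1 of 37 in cluster 7 (2.68%), 3 of 37 in cluster 6 (2.97%) and 3 of 39 in cluster 1 (3.89%). Those higher were 2 of 39 in cluster 14 (4.40%), 4 of 22 in NK cell-like cells (2.21%) and 1 of 37 in cluster 6 (1.06%). With at least 50 counts, those lower were 8 of 40 in the libraries (14.8%), 1 of 39 with Ptprc (8.86%) and 2 of 37 in cluster 14 (16.4%). They were 2 of 38 in regulatory T cell-like cells (6.7%), 3 of 32 in cluster 7 (5.56%), 6 of 30 in cluster 6 (5.85%) and 9 of 33 in cluster 1 (7.08%). Those higher were 7 of 37 in cluster 14 (9.52%), 4 of 14 in NK cell-like cells (5.43%) and 0 of 30 in cluster 6 (3.03%).

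No paired analysis was possible because each group has 1 library, and for the same reason no library was left out in turn. A class that merged with another under a setting gave no value there. Depth limits the results most in eosinophil and neutrophil-like cells and in cluster 17, where 632 of 1342 RHS cells had under 1000 UMIs. The number of cells limits cluster 14, with 51 RHS cells, and melanocyte-like cells, with 53. Among genes with few counts, such as Plk1 (22 counts in RHS and 44 in control), the ratios are wide. Free RNA in the capture was not removed, and the level in neutrophil-like cells was subtracted only as an alternative.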
